A study of Homo sapiens with 2 samples.

Results

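The genes described here are those of the proteasome, its activators and its assembly chaperones, taken as every row of the deposited table whose symbol is PSM followed by a letter from A to G and a number. The pattern found 48 genes among 50867 gene rows, and none of the measured values entered the choice. The series holds 2 libraries of total RNA from HCT116, an established human colorectal carcinoma line, each prepared with a stranded total RNA kit: 1 from cells transfected with an siRNA against PHF5A and 1 from cells transfected with a control siRNA. PHF5A belongs to the SF3b complex, with which the spliceosome recognises the branch point of an intron, and the study asked which transcripts depend on it. Each group is 1 library, so every difference below lacks a replicate check, stands without a test or a p-value, and cannot be told apart from the spread between cultures. Effects of PHF5A loss and other effects of the siRNA cannot be told apart.

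The proteasome is the cell's main protease for proteins tagged with ubiquitin. Its 20S core is a barrel of alpha rings (PSMA genes) around beta rings (PSMB genes), and the catalytic sites sit on beta subunits inside the barrel. The 19S cap (PSMC ATPases and PSMD subunits) binds, unfolds and feeds substrates, while other activators (PSME genes) can take the place of the cap. Interferon-gamma raises the genes of alternative catalytic subunits (PSMB8, PSMB9 and PSMB10) and of the activator PA28 (PSME1 and PSME2), and the particles built with them supply peptides for MHC class I molecules.

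The knockdown library held 25897412 counts and the control library 26552789. The targeted gene PHF5A had 91 counts in the knockdown library and 367 in the control library, 3.93-fold lower by CPM (the count scaled to the library total; 95% counting interval 3.12 to 5.0). Intervals here are exact conditional binomial (Clopper-Pearson) ones and cover counting error only, since reads are not independent molecules. Small noncoding RNAs (7SL, RN7SK, RPPH1 and RMRP) took 26.1% of the knockdown counts and 17.4% of the control counts, and they are part of the total to which every value is scaled. Colorectal epithelial markers took 1.37% of the knockdown counts and 1.40% of the control counts, nearly all from the keratins KRT8, KRT18 and KRT19. Counts were found for 7 of 10 markers in each library, while KRT20 and CDX1 were at 0 in both. These include VIL1 with 1 count in the knockdown library and LGALS4 with 2 in the control library. CDX2 had 367 counts in the knockdown library and 822 in the control library. It was 1 of 5 markers that took a lower share of the knockdown counts than of the control counts. The libraries differed in markers of another tissue. A list of 15 heart muscle genes had 328 counts in the knockdown library, with 7 genes at 0, and 96787 counts in the control library, with none at 0. Where the heart muscle counts in libraries of a carcinoma line came from was not tested. In bulk RNA, fewer cells of a type and less RNA per cell cannot be told apart.

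The proteasome genes as a set had a median near that of all expressed genes. The largest differences were in the activator genes PSME1 and PSME2 and the immunoproteasome gene PSMB9. By CPM, PSMA6 of the alpha ring stood level with PSME2, 2.01-fold lower in the knockdown library where PSME2 was 2.03-fold lower. The log2 ratio of FPKM (fragments scaled to gene length and library total) with 1 added to each value, knockdown over control, is the measure of difference throughout, and it understates the change of low genes. At least 1 FPKM in the higher library was reached by 41 of the 48 genes, and by 8957 genes in all. The median log2 ratio was -0.09 over the 41 proteasome genes and -0.15 over all expressed genes. The SD was 0.40 over the 41 genes and 0.63 over all expressed genes. Between the quartiles of all expressed genes, which hold 50% of those genes by construction, lay 23 of the 41.

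Set against a threshold of 2-fold by size alone, 0 of the 41 proteasome genes were higher in the knockdown library, where 2.53% of all expressed genes were. At least 2-fold lower was 1 of the 41, PSME1, where the share over all expressed genes was 6.20%. At 1.5-fold, 0 were higher (8.45% of all expressed genes) and 6 were lower (18.2%): PSME1, PSMB9, PSME2, PSME3, PSMD8 and PSMD3. The counting interval of the CPM ratio lay above 1 for 14 of the 41 genes (28.4% of all expressed genes) and below 1 for 20 (50.7%). The split at 1.5-fold depended on the scaling. It was 2 higher and 4 lower after centring on the median of the expressed genes, 3 and 3 after upper-quartile scaling, 2 and 4 with the small RNAs left out of the totals, and 0 and 17 after rescaling to TPM. The median of all expressed genes was -0.15 as deposited, 0.09 after upper-quartile scaling, -0.02 without the small RNAs and -0.47 with TPM. PSME1, PSME2 and PSMB9 stayed among the lower genes at 1.5-fold under each of these scalings. Some smaller differences among the 41 genes changed sign with the scaling. PSMA2, PSMA3, PSMB2, PSMB4, PSMB6, PSMD7, PSMD9, PSMD11, PSME4, PSMF1, PSMG1 and PSMG2, above 0 as deposited, stood below 0 with TPM. PSMA7, PSMB1, PSMB3, PSMB10, PSMC4, PSMC5 and PSMD4, below 0 as deposited, stood above 0 with upper-quartile scaling.

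**Figure D1:**
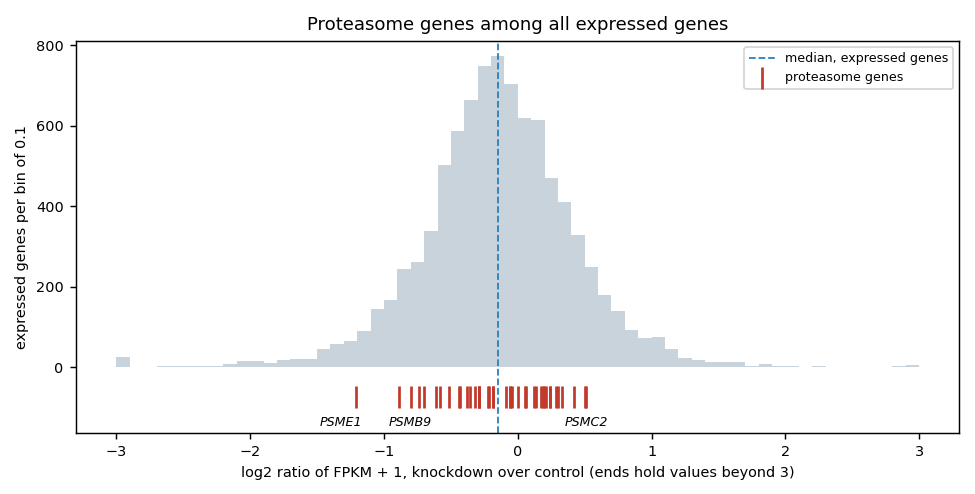
The histogram gives the log2 ratio of FPKM + 1 (knockdown over control) for the 8957 expressed genes in bins of 0.1, and the red ticks are the 41 proteasome genes of at least 1 FPKM. The ticks spread around the dashed line, the median of all expressed genes at -0.15, from PSME1 at -1.21 to PSMC2 at 0.51.

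The upstream sequences of 4 of the 5 interferon-linked genes are shown because PSME1, PSMB9 and PSME2 hold the lowest log2 ratios of the 41 genes and PSMB10, of the same group, does not. PSMB8, the other gene of the group, stayed under 1 FPKM in both libraries and is not printed, and 1 of its windows holds a gamma-activated site match 65 bases before the start. Each printed sequence is the stretch of 250 bases before the gene's start in RefSeq (GRCh38.p14), written 5′ to 3′ on the gene's strand. Capitals mark matches, on either strand, to 4 motifs: the core of the interferon-stimulated response element (2 copies of GAAA with 2 bases between them), the core of the antioxidant response element (TGACNNNGC), the CCAAT box (CCAAT) and the gamma-activated site (TTCNNNGAA). No marked match overlaps another, and the RefSeq starts of PSME2 and PSMB9 lie inside the spans of their entries in the table.
PSME1, chr14:24135944-24136193, plus strand: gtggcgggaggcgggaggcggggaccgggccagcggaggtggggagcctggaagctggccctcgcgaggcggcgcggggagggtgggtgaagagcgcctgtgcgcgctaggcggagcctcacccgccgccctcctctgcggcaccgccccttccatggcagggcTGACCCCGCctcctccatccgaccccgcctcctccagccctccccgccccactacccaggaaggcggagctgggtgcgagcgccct
PSME2, chr14:24146611-24146860, minus strand: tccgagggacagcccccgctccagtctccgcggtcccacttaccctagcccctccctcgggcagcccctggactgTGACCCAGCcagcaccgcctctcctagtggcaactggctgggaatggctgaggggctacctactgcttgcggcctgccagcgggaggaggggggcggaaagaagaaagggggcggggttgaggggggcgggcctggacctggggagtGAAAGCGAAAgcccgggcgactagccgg
PSMB9, chr6:32853942-32854191, plus strand: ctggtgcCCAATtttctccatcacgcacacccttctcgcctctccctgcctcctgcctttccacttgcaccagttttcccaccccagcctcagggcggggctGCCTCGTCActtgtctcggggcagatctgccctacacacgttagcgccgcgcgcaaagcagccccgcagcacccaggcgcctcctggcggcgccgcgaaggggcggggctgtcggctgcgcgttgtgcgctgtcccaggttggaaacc
PSMB10, chr16:67936851-67937100, minus strand: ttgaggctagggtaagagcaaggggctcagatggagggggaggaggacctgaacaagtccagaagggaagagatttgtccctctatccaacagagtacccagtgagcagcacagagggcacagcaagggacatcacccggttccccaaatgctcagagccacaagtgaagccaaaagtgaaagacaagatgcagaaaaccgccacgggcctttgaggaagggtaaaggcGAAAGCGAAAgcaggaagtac

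In these windows PSME2 held a match to the interferon-stimulated core 28 bases before the start and PSMB10 held one 21 bases before it, while PSME1 and PSMB9 held none. A match to the antioxidant response core stood in the windows of PSME1, PSME2 and PSMB9. That core, in its full form, is bound by NFE2L1 and NFE2L2, the transcription factors that raise proteasome genes when the proteasome is inhibited and when cells are under oxidative stress. RefSeq windows were at hand for 42 of the 48 genes, 51 windows in all because some genes have several starts. The antioxidant response core matched 25.5% of these windows and 10.9% of 35116 windows of the same length over all genes. The interferon-stimulated core matched 9.80% of the proteasome windows and 3.02% of all windows, the gamma-activated site 13.7% of the proteasome windows and 6.57% of all, and the CCAAT box 37.3% of the proteasome windows and 32.0% of all. Some windows of 1 gene overlap, and a match describes letters only. Of the 6 genes at least 1.5-fold lower, the antioxidant core was in the windows of PSME1, PSME2, PSMB9 and PSMD3 and not in those of PSME3 and PSMD8. It was in the windows of 13 of the 42 genes in all, among them PSMB3 and PSME4.

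The activators had the lowest median of the letter classes, and 3 of the 4 were at least 1.5-fold lower in the knockdown library, as were 18.2% of all expressed genes. With upper-quartile scaling it was 2 of the 4, since PSME3 then had a log2 ratio of -0.52. PSME1 (ENSG00000092010, chromosome 14, 24136158 to 24138967, GRCh38), the alpha subunit of PA28, had 1090 counts and 9.79 FPKM in the knockdown library and 2738 counts and 24.0 FPKM in the control library. That is a log2 ratio of -1.21, and 2.45-fold lower by CPM (interval 2.28 to 2.63). It had the lowest log2 ratio of the 41 genes. PSME2 (chromosome 14, 24143362 to 24147570), the beta subunit of the same ring, had 782 counts and 2.62 FPKM in the knockdown library and 1625 counts and 5.31 FPKM in the control library, 2.03-fold lower (1.86 to 2.21). PSME3, which forms the nuclear activator PA28 gamma and is not raised by interferon-gamma in the way the other two are, had 3.05 FPKM in the knockdown library and 5.74 FPKM in the control library. Its CPM was 1.88-fold lower (1.75 to 2.02), so PSME1, PSME2 and PSME3 were all lower. PSME4, the large activator PA200, had 1.74 FPKM in the knockdown library and 1.5 FPKM in the control library, a CPM ratio of 1.16 (1.04 to 1.31). The 4 activators together had 3659 counts in the knockdown library and 7148 in the control library, 1.91-fold lower (1.83 to 1.98). Their median log2 ratio lay 0.62 below that of all expressed genes, and between 0.62 and 0.77 below it under each alternative setting.

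PSME1 and PSME2 are neighbours on chromosome 14, on opposite strands and 4.4 kb apart. EMC9 lies between them and overlaps the end of PSME1 on the opposite strand. EMC9, a subunit of the endoplasmic reticulum membrane protein complex, had 869 counts in the knockdown library and 877 in the control library, a CPM ratio of 1.02 (0.924 to 1.12). Within 50 kb of the pair, 9 other entries reached 1 FPKM, and their log2 ratios ran from -1.81 for an entry that carries a clone name and spans IRF9 to 1.69 for PCK2. At least 1.5-fold lower were 3 of the 9 (that entry, IPO4 and another clone-named entry over IPO4) and 1 was higher (PCK2), where 18.2% of all expressed genes were lower and 8.45% higher. IRF9, which carries type I interferon signals to the nucleus, had 460 counts in the knockdown library and 267 in the control library, a CPM ratio of 1.77 (1.52 to 2.06). The entry that spans IRF9 lies on the same strand and also overlaps RNF31 on that strand. The clone-named entry over IPO4 shares the strand of IPO4. The 9 entries are therefore not separate loci, and reads of those that overlap on the same strand may not be cleanly divided. PSME2 overlaps RNF31 on the opposite strand (1595 counts in the knockdown library and 2416 in the control library), and PSME3 overlaps BECN1 on the opposite strand (174 counts in the knockdown library and 306 in the control library). The kit keeps strand, but no source used here states whether the counting used it, so values of overlapping genes are uncertain.

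**Figure D2:**
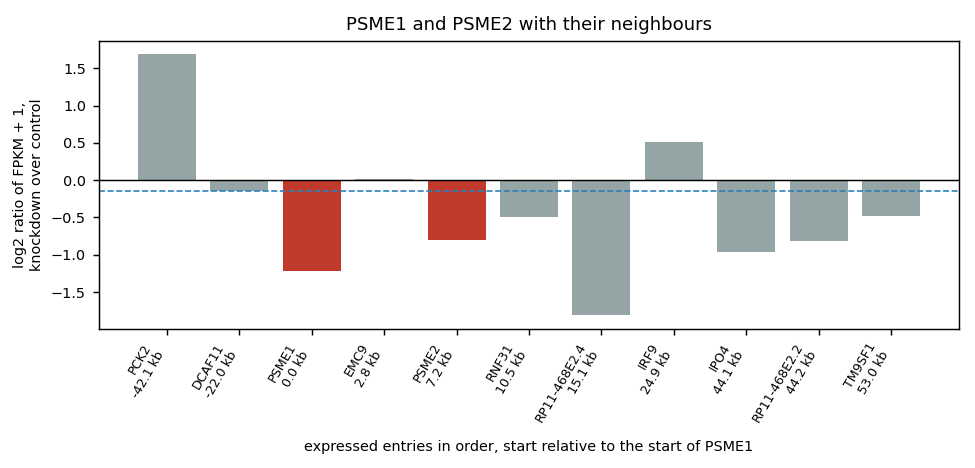
Bars give the log2 ratio of FPKM + 1 (knockdown over control) for the entries of at least 1 FPKM around PSME1 and PSME2 (red), in order along chromosome 14, each labelled with the distance of its start from the start of PSME1 in kilobases. The dashed line is the median of all expressed genes, -0.15, and EMC9 between the red bars stands at 0.02.

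The immunoproteasome subunits replace the standard catalytic subunits in newly built cores. PSMB9 (chromosome 6, 32844136 to 32859585), which takes the place of PSMB6, had 197 counts and 1.82 FPKM in the knockdown library and 467 counts and 4.21 FPKM in the control library. It was 2.31-fold lower by CPM (1.95 to 2.75), with a log2 ratio of -0.89. PSMB10, which takes the place of PSMB7, had 236 counts and 2.76 FPKM in the knockdown library and 287 counts and 3.28 FPKM in the control library, and the interval of its CPM ratio held 1 (0.843, 0.707 to 1.01). PSMB10 shares its strand with an overlapping entry, CTC-479C5.12, which had 81 counts in the knockdown library and 202 in the control library. PSMB8, which takes the place of PSMB5, had 14 counts in the knockdown library and 0 in the control library, which is 4.78-fold against a floor of 3 counts per library, and the counting interval of its CPM ratio begins at 3.40. It stayed under 1 FPKM in both and overlaps PSMB9 on the opposite strand. PSMB9 in turn overlaps TAP1, also on the opposite strand, and the part of these overlaps in the values was not tested. The testis form PSMA8 and the thymus form PSMB11 had 0 counts in both libraries, which allows up to 0.116 CPM in the knockdown library and 0.113 CPM in the control library.

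The class I genes served by these particles were mostly lower too. Of a list of 10 genes of class I peptide supply and its interferon-gamma control, 6 were at least 1.5-fold lower and 0 higher, where the shares of all expressed genes were 18.2% and 8.45%. The counting interval of the CPM ratio lay below 1 for 9 of the 10 and above 1 for 1. The list was drawn up with earlier results of these data known. The median log2 ratio of the 10 was -0.65, and it lay between -0.98 and -0.48 under the alternative settings. TAP1, a subunit of the peptide transporter, had 979 counts in the knockdown library and 2174 in the control library, 2.17-fold lower (2.01 to 2.34). TAP1 and PSMB9 share their promoter region, and their CPM ratios were 0.462 and 0.433. NLRC5, the activator of class I transcription, was 2.34-fold lower (2.05 to 2.67), and it stood at 0.519 FPKM in the knockdown library and 1.21 FPKM in the control library. B2M was 2.04-fold lower (1.82 to 2.28) and HLA-C 1.77-fold (1.71 to 1.84). IRF1, a transcription factor induced by interferon-gamma, was 1.82-fold lower (1.66 to 2.01). TAPBP, the tapasin gene, had a CPM ratio nearer to 1 (0.912, 0.870 to 0.956).

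**Figure D3:**
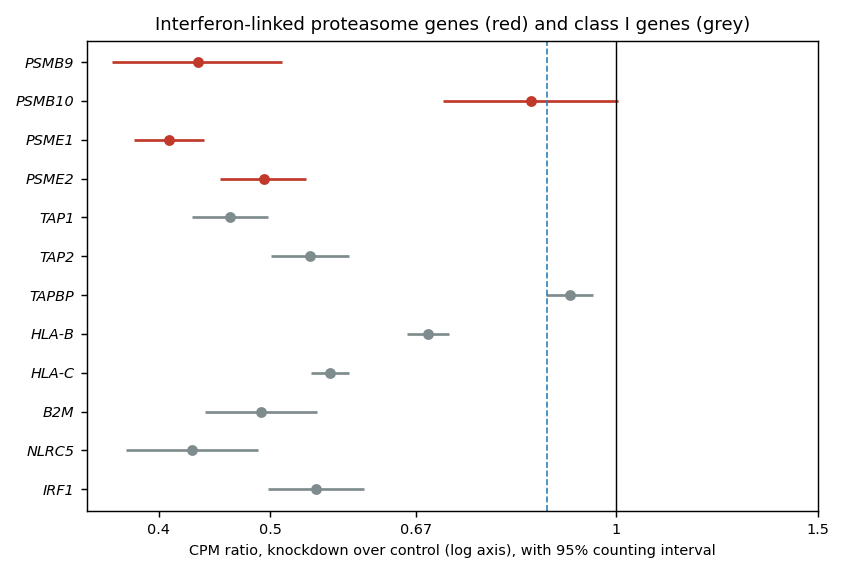
Points give the CPM ratio of knockdown to control on a log axis with its 95% exact counting interval, for 4 interferon-linked proteasome genes (red) and 8 of the 10 genes of class I peptide supply (grey), 1 library per group. The solid line marks 1 and the dashed line the median ratio of all expressed genes, 0.872; PSMB9, PSME1 and PSME2 lie at 0.433, 0.408 and 0.493, and TAPBP at 0.912 is the grey point nearest to 1.

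Markers of cells other than colorectal epithelium moved along with these genes. Beside the heart muscle list, a list of 10 fibroblast genes had 878 counts in the knockdown library, with 3 genes at 0, and 2904 in the control library, with 1 at 0. Their part in the lower values of PSME1, PSME2, PSMB9 and the class I genes was not tested. Blood and immune cells, in which immunoproteasome genes are known to be high, left few counts in either library. A list of 15 of their markers had 574 counts in the knockdown library and 799 in the control library, of which CD68 held 361 in the knockdown library and 518 in the control library. PTPRC, the pan-leukocyte gene CD45, had 1 count in the knockdown library and 6 in the control library, and CD3E, CD3D, CD2 and MS4A1 had 0 in both.

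The standard catalytic subunits lay on both sides of 1. PSMB5, the chymotrypsin-like subunit, had 5475 counts and 59.8 FPKM in the knockdown library and 6894 counts and 73.5 FPKM in the control library, 1.23-fold lower (1.19 to 1.27). PSMB7, the trypsin-like subunit, had 79.9 FPKM in the knockdown library and 103 FPKM in the control library, 1.28-fold lower (1.24 to 1.33). PSMB6, the caspase-like subunit, lay on the other side, except with TPM, with 69.5 FPKM in the knockdown library and 56.8 FPKM in the control library (CPM ratio 1.22, 1.17 to 1.28). The intervals of PSMB5 and PSMB6 did not meet, although their products are present in equal number in each standard core. Of the 4 structural beta subunits, PSMB4 was the highest with a CPM ratio of 1.18 (1.15 to 1.21) and PSMB1 the lowest with 0.959 (0.881 to 1.04). PSMB2 (1.04) and PSMB3 (0.962) lay between them, and the log2 ratio of each of the 4 was above the median of all expressed genes.

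The alpha ring held both directions too. PSMA6 had 271 counts in the knockdown library and 558 in the control library, 2.01-fold lower by CPM (1.73 to 2.33). At 0.979 FPKM in the knockdown library and 1.97 FPKM in the control library its log2 ratio on the FPKM + 1 scale was -0.58. PSMA1 was 1.63-fold lower (1.44 to 1.83) and PSMA5 1.41-fold lower (1.26 to 1.58). PSMA2 (CPM ratio 1.29, 1.05 to 1.59) and PSMA3 (1.20, 1.01 to 1.43) lay above 1. PSMA4, under 1 FPKM in both libraries, had 347 counts in the knockdown library and 248 in the control library, a ratio of 1.43 (1.22 to 1.70). PSMA7, the most abundant alpha subunit by FPKM, had 14.9 FPKM in the knockdown library and 15.9 FPKM in the control library, and its interval held 1. The counts of the 14 standard core genes, 7 alpha and 7 beta, summed to 53961 in the knockdown library and 56015 in the control library, a CPM ratio of 0.988 (0.976 to 0.999). The median log2 ratio of the 13 of them with at least 1 FPKM was -0.06, 0.09 above that of all expressed genes.

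**Figure D4:**
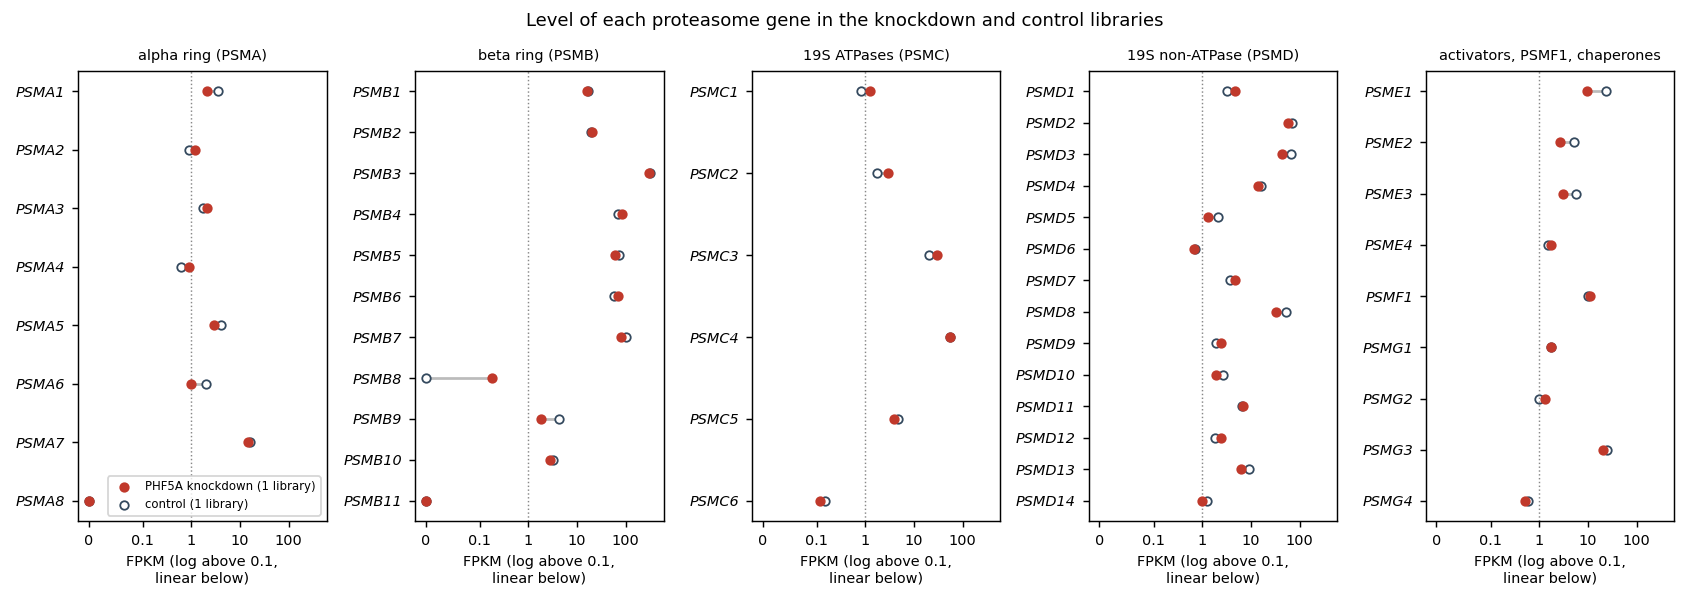
Each row is 1 of the 48 genes, with FPKM in the knockdown library (filled red) and the control library (open) on an axis that is logarithmic above 0.1 FPKM and linear below, and a dotted line at 1 FPKM. The levels run from 0 for PSMA8 and PSMB11 to 303 (knockdown) and 316 (control) FPKM for PSMB3, and the gap between the libraries is small beside the spread between genes.

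In the base of the 19S cap, the ATPases had the highest group median. PSMC2 had 436 counts and 2.95 FPKM in the knockdown library and 268 counts and 1.77 FPKM in the control library, a CPM ratio of 1.67 (1.43 to 1.95) and the highest log2 ratio of the 41 genes, 0.51. PSMC3 had 3103 counts and 29.6 FPKM in the knockdown library and 2214 counts and 20.6 FPKM in the control library, a ratio of 1.44 (1.36 to 1.52). PSMC1 had 270 counts in the knockdown library and 176 in the control library, a ratio of 1.57 (1.30 to 1.91). Its pseudogene PSMC1P1 had more counts than PSMC1 itself, 325 in the knockdown library and 245 in the control library, and the sum of both gave 1.45 (1.28 to 1.65). Of the rest, PSMC4 was near 1 (0.969, 0.934 to 1.01), PSMC5 was lower (0.831, 0.767 to 0.899) and PSMC6 had too few counts to place, 41 in the knockdown library and 52 in the control library (0.808, 0.523 to 1.24). The median log2 ratio of the 5 ATPase genes of at least 1 FPKM was 0.33. It stayed above 0 under each alternative setting, between 0.10 and 0.52.

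The non-ATPase subunits spread to both sides. PSMD8 and PSMD3, both in the lid that removes and recycles ubiquitin chains, were lowest among them. PSMD8 had 5287 counts and 32.3 FPKM in the knockdown library and 8932 counts and 53.3 FPKM in the control library, 1.65-fold lower (1.59 to 1.71). PSMD3 had 6883 counts and 43.1 FPKM in the knockdown library and 10870 counts and 66.3 FPKM in the control library, 1.54-fold lower (1.49 to 1.59). PSMD13, also of the lid, was 1.40-fold lower (1.32 to 1.49). PSMD12 (CPM ratio 1.36, 1.20 to 1.55) and PSMD7 (1.23, 1.08 to 1.39) lay above 1. PSMD11 (1.04) and PSMD6 (0.989) had intervals that held 1, and PSMD14, the deubiquitinase of the lid, had 219 counts in the knockdown library and 286 in the control library (0.785, 0.655 to 0.939). In the base, the scaffold subunit PSMD1 had 955 counts in the knockdown library and 679 in the control library (1.44, 1.31 to 1.59), while the scaffold PSMD2 had 17067 in the knockdown library and 21489 in the control library (0.814, 0.798 to 0.831). The ubiquitin receptor PSMD4 stood at 0.848 (0.801 to 0.899). Summed over the 8 lid genes, counts were 17404 in the knockdown library and 25643 in the control library, 1.44-fold lower (1.41 to 1.47), and PSMD3 and PSMD8 gave most of these counts.

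**Figure D5:**
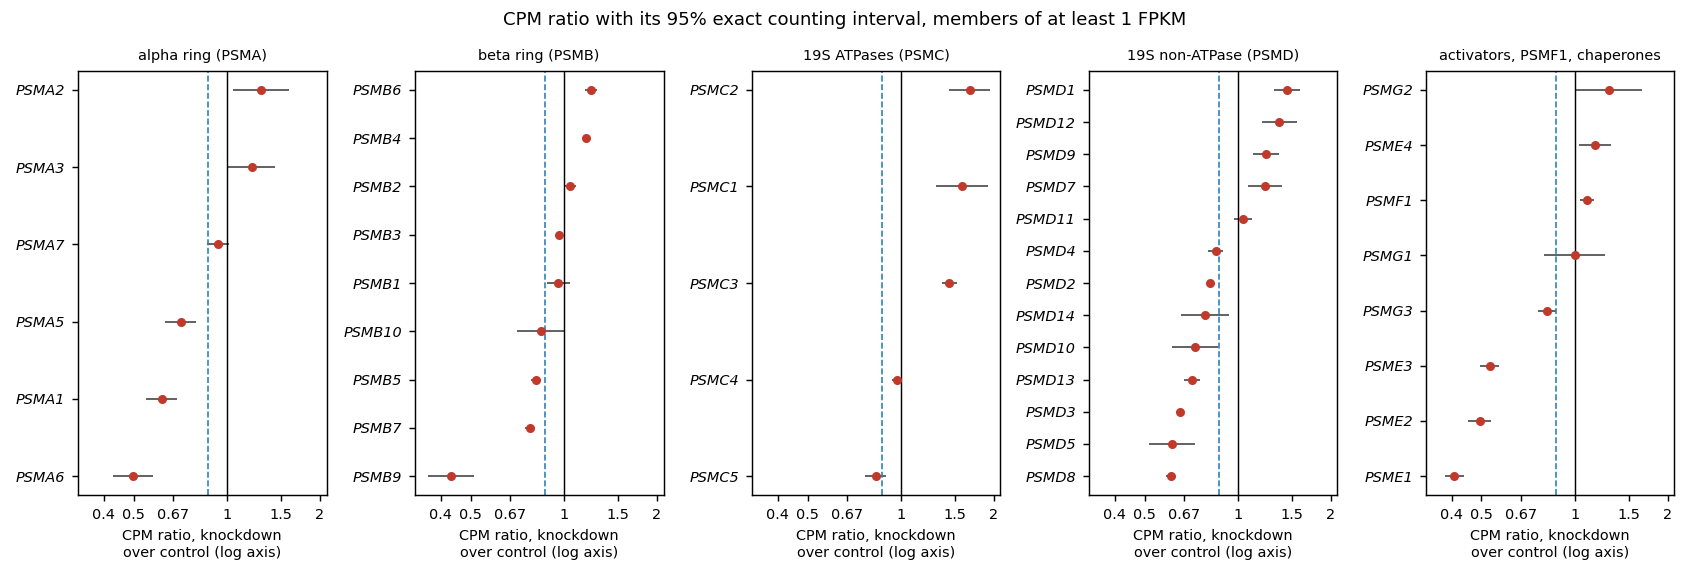
Points are CPM ratios of knockdown to control on a log axis, with 95% exact counting intervals as bars, for the 41 genes of at least 1 FPKM, sorted within 5 groups. The solid line marks 1 and the dashed line the median of all expressed genes, 0.872; the lowest points are PSME1, PSMB9 and PSME2 and the highest is PSMC2.

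None of the assembly factors, nor the regulator PSMF1, reached 1.5-fold on the FPKM + 1 scale. The chaperones PSMG1 and PSMG2 work as a pair on the alpha ring. PSMG1 had 159 counts in the knockdown library and 163 in the control library, a ratio of 1.0 (0.799 to 1.25), and PSMG2 had 156 in the knockdown library and 124 in the control library (1.29, 1.01 to 1.65). PSMG3, of the second pair, had 20.1 FPKM in the knockdown library and 24.8 FPKM in the control library, 1.23-fold lower (1.15 to 1.32), and its partner PSMG4 stayed under 1 FPKM in both (184 counts in the knockdown library and 212 in the control library). PSMF1, which encodes PI31, had 10.8 FPKM in the knockdown library and 9.89 FPKM in the control library, a ratio of 1.10 (1.04 to 1.16). Among the chaperones of the 19S base, PSMD5 was 1.63-fold lower (1.37 to 1.93) and PSMD10, also called gankyrin, 1.37-fold lower (1.16 to 1.62). PSMD9 lay above 1 (1.24, 1.12 to 1.36).

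Levels differed far more between genes than between libraries. Among the 31 genes of the standard core and cap, FPKM ran from 0.120 for PSMC6 to 303 for PSMB3 in the knockdown library, and from 0.148 to 316 for the same genes in the control library. The median was 69.5 FPKM over the 7 standard beta genes and 2.07 FPKM over the 7 alpha genes in the knockdown library, and 69.8 FPKM over the beta genes and 1.97 FPKM over the alpha genes in the control library. The part of the GC content of the transcripts in these levels was not tested. The deposited FPKM divides by a gene length that, for the proteasome genes, was 1.03 to 3.25 times the merged exon length in GENCODE release 29, with a median of 1.63. Dividing by the merged exon length instead left the same genes at both ends, with 0.212 (PSMC6) to 515 (PSMB3) per kilobase of merged exon in the knockdown library, scaled to the total as in CPM, and 0.262 to 535 in the control library. The order of the 31 FPKM levels was much alike in the libraries (Spearman's rho 0.97, a description over genes that share each library). Within the 41 genes, the log2 ratio had a Spearman's rho of -0.16 with the mean level, 0.28 with the exon number of the longest transcript and -0.15 with its GC content. These describe the genes of 1 pair of libraries and carry no test.

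Genes that work with the proteasome were read from a second list, of 46 genes in all and 40 with at least 1 FPKM, which includes the 10 class I genes above. At least 1.5-fold, 4 were higher (8.45% of all expressed genes) and 8 lower (18.2%). Values of single genes in this list are given under the deposited scaling alone. Of the particle's subunits and chaperones outside the PSM names, 2 of 4 had at least 1 FPKM and neither reached 1.5-fold. ADRM1, the ubiquitin receptor of the cap, had 232 FPKM in the knockdown library and 166 FPKM in the control library (CPM ratio 1.40, 1.37 to 1.44), and POMP, the maturation chaperone of the core, had 14.4 FPKM in the knockdown library and 14.9 FPKM in the control library. UBB, which encodes a chain of ubiquitin repeats, had 14804 counts in the knockdown library and 42480 in the control library, 2.80-fold lower (2.75 to 2.85), and its reads may be shared with near-identical ubiquitin sequences elsewhere. UBA1, the main ubiquitin-activating enzyme, was 1.48-fold lower (1.46 to 1.51). Of the shuttle factors that carry substrates to the cap, RAD23B was 1.32-fold lower (1.21 to 1.44) and UBQLN4 was 2.88-fold lower (2.71 to 3.06). The 5 genes of the p97 segregase list had log2 ratios from -0.47 (NPLOC4) to -0.21 (FAF1), each below the median of all expressed genes.

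NFE2L1, the main transcriptional activator of proteasome genes, had 5529 counts in the knockdown library and 4727 in the control library, a CPM ratio of 1.20 (1.15 to 1.25). NFE2L2 had an interval that held 1 (0.949, 0.844 to 1.07). Of their small MAF partners, MAFF had 9.95 FPKM in the knockdown library and 2.67 FPKM in the control library (3.72, 3.45 to 4.02) and MAFG had 3.88 FPKM in the knockdown library and 2.24 FPKM in the control library (1.73, 1.54 to 1.96). MAFK had 8.06 FPKM in the knockdown library and 11.9 FPKM in the control library (0.677, 0.632 to 0.725). The protease DDI2, which cleaves NFE2L1 into its active form, was 1.23-fold lower (1.08 to 1.42), and AKIRIN2, which carries proteasomes into the nucleus, had a ratio of 1.39 (1.20 to 1.62).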

How the data were processed

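Total RNA of HCT116 cells was measured in 1 PHF5A siRNA library and 1 control siRNA library, grouped by the labels. Per the submitters' processing notes, the tools were HISAT2 2.0.4 and Cuffdiff and the build was hg38 (GRCh38). Which annotation was counted, whether strand was used and how multiply placed reads were handled are points not given in the sources used here. Whole-number counts and FPKM per gene make up the deposited table, per the file headers. The authors' FPKM equals the count over a fixed gene length and the total count, to within 0.0241% over 18898 genes. Of 50869 lines, 2 belonged to a broken entry and were left out.

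Log2 ratios used FPKM with a pseudocount of 1, a minimum of 1 FPKM in whichever library was higher, and thresholds of 2-fold and 1.5-fold. CPM ratios carry 95% Clopper-Pearson intervals. In the depths here, 1 count on a gene of 1 kilobase is 0.0386 FPKM in the knockdown library and 0.0377 FPKM in the control library. Strand, exons and GC were looked up in GENCODE release 29, where all 48 genes were found by identifier. The procedure was checked on simulated counts that held counting error only, with planted changes larger than 2-fold in genes of at least 5 FPKM. That check did not cover the 1.5-fold calls, genes under 5 FPKM or the spread between cultures. The genes and lists were chosen with earlier results of these data known. The counts and medians of lists cover all their genes, but values of some single genes are not reported here. Named with values are the catalytic, immunoproteasome, activator, chaperone and tissue forms, each gene past 1.5-fold and the ends of each role group; others, and the neighbours and motifs, were chosen after their values were seen. Alternatives were other pseudocounts, filters, scalings and lengths. The work used scipy 1.17.1, pandas 2.3.3 and numpy 2.4.6 under Python 3.11.15.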

Additional observations from a re-analysis of the deposited data

How the results depend on the processing

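No paired analysis was possible because each group held 1 library, and for the same reason none could be left out. The numbers of proteasome genes past a threshold were 0 higher and 1 lower at 2-fold, and 0 higher and 6 lower at 1.5-fold. At 2-fold the number lower was 2 with a pseudocount of 0.1 FPKM and 2 with 0.5 FPKM, 4 by CPM with a prior count of 0.5, 6 with TPM and 0 with upper-quartile scaling. At 1.5-fold the number higher was 2 with a pseudocount of 0.1 FPKM, 1 with 0.5 FPKM, 2 by CPM, 2 after centring, 2 without the small RNAs and 3 with upper-quartile scaling, and the number lower was 17 with TPM and 3 with upper-quartile scaling. The median of the proteasome genes minus that of all expressed genes was 0.060, and -0.085 among genes of at least 5 FPKM, of which 21 were proteasome genes. None of the 6 genes lower at 1.5-fold changed direction under any of the 11 alternatives. The lengths from GENCODE and the minimum of 100 counts were chosen after seeing the data, and gave 8 and 6 lower at 1.5-fold. Single genes moved by more than their counting interval most often with TPM (36 of 46 genes with counts) and upper-quartile scaling (29). Depth limits PSMC6, PSMG2 and PSMG1 most, whose counting intervals are the widest, relative to their ratios, after that of PSMB8.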

Other observations

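Pseudogenes of the proteasome genes had few counts apart from PSMC1P1. Of 29 pseudogene rows, 15 had 0 counts in both libraries, and 1, PSMC1P1, reached 20 counts. Together they had 387 counts in the knockdown library and 294 in the control library.

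Antisense RNAs named after proteasome genes were all under 1 FPKM. PSMG3-AS1 had 165 counts in the knockdown library and 59 in the control library, a CPM ratio of 2.87 (interval 2.12 to 3.93), while its partner PSMG3 was lower. PSMA3-AS1 had 20 counts in the knockdown library and 49 in the control library (0.418, 0.236 to 0.717). PSMD5-AS1 had 12 counts in the knockdown library and 52 in the control library (0.237, 0.115 to 0.449). PSMB8-AS1 had 0 counts in the knockdown library and 1 in the control library, and PSMD6-AS2 had 0 in the knockdown library and 4 in the control library. Whether the counting used strand is not known, so reads of a gene and its antisense partner cannot be told apart.

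Of the 48 proteasome genes, 29 overlap another entry of the table, and for 18 an overlapping entry held over 10% of the gene's own counts in at least 1 library.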
